A study of Homo sapiens with 6 samples.

Results

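The fibroblast growth factor (FGF) ligands FGF1, FGF2, FGF5, FGF7 and FGF18 and the FGF receptors FGFR1, FGFR2, FGFR3, FGFR4 and FGFRL1 were followed in Hs578T cells after knockdown of CCN3. These 10 genes were taken by symbol from a table of 46427 genes, and all 10 had a row. Of the 10, 8 passed the filter on low counts and were tested, whereas FGF7 and FGFR2 were not.

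Hs578T is a triple-negative breast cancer line of mesenchymal type, and CCN3 encodes a secreted matricellular protein of the CCN family. RNA-seq libraries came from 3 samples of cells transduced with the retroviral control shRNA (shCTRL) and 3 samples transduced with CCN3 shRNA (shCCN3). Both lines had been through retroviral transduction and puromycin selection and grew in DMEM with serum. The shCCN3 line carried 1 shRNA sequence against CCN3. Effects of the knockdown, of this sequence on other genes and of other differences between the lines cannot be told apart in this design. The samples are described as independent biological replicates without saying what separated them, so the p-values below measure the spread between these 6 libraries.

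FGF ligands are secreted and bind receptor tyrosine kinases together with heparan sulfate on the cell surface. FGF1 binds all of the kinase receptors, and the other ligands each bind a subset. The bound receptors dimerise, phosphorylate the adaptor FRS2, and signal through GRB2 and GAB1 to the MAP kinases. Sprouty, Spred and dual-specificity phosphatase proteins, whose genes are commonly induced by the pathway, damp it. FGFRL1 has the extracellular part of a receptor but lacks the kinase. FGF receptor genes, FGFR1 above all, are recurrently amplified in breast cancer.

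The libraries held between 56159110 and 68393177 counts, so 3 counts, used as the limit that a count of 0 allows, correspond to 0.0439 to 0.0534 CPM, counting error only. CPM are a gene's counts divided by the library total after correction by TMM factors, on a common scale. Within a group, libraries were further apart than counting noise, with a chi-square per degree of freedom of 7.13 to 46, and the highest values were those of shCCN3 replicate 2, the shallowest library, against the other shCCN3 libraries (37.6 and 46). Results that change without this library are given both ways. CCN3 was 103, 102 and 98.1 CPM in shCTRL and 47.4, 47.2 and 46.5 CPM in shCCN3 cells, a log2 fold change of shCCN3 over shCTRL (log2FC) of -1.10 (SE 0.055, adjusted p = 1.34e-06, edgeR). Of 6 mesenchymal markers all were present (SPARC 800 and VIM 7778 CPM in shCTRL cells). ESR1, CDH1 and EPCAM were at most 0.0711 CPM in either group mean. ERBB2 at 77.9 and PGR at 2.86 CPM in shCTRL cells were not near 0. CDH2 was called higher (log2FC 0.87) and CD44 lower (-0.25). The leukocyte marker PTPRC averaged 0.0656 and 0.180 CPM, while the endothelial marker PECAM1 was 3.57 CPM in shCTRL and 3.43 CPM in shCCN3 cells. The part of these cell types in the results was not tested. In such bulk RNA, fewer cells of a type and less RNA per cell cannot be told apart.

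A gene is called when the quasi-likelihood test of edgeR gave it an adjusted p under 0.05, adjusted over all 17419 genes tested. A large share of the transcriptome differed between the groups: 16.2% of the genes tested were called higher, 17.3% lower and 33.4% in either direction, and the groups did not overlap in 46.3%. Without shCCN3 replicate 2, 3571 of 17837 genes tested were called higher and 3658 lower. Against this background, 4 of the 8 tested FGF genes were called higher (FGF1, FGF2, FGFR3 and FGFR4), 1 was called lower (FGFR1) and 3 were not called (FGF5, FGF18 and FGFRL1). The groups did not overlap in 7 of the 8. Their median log2FC was 0.52, beside 0.01 for all genes tested.

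**Figure D1:**
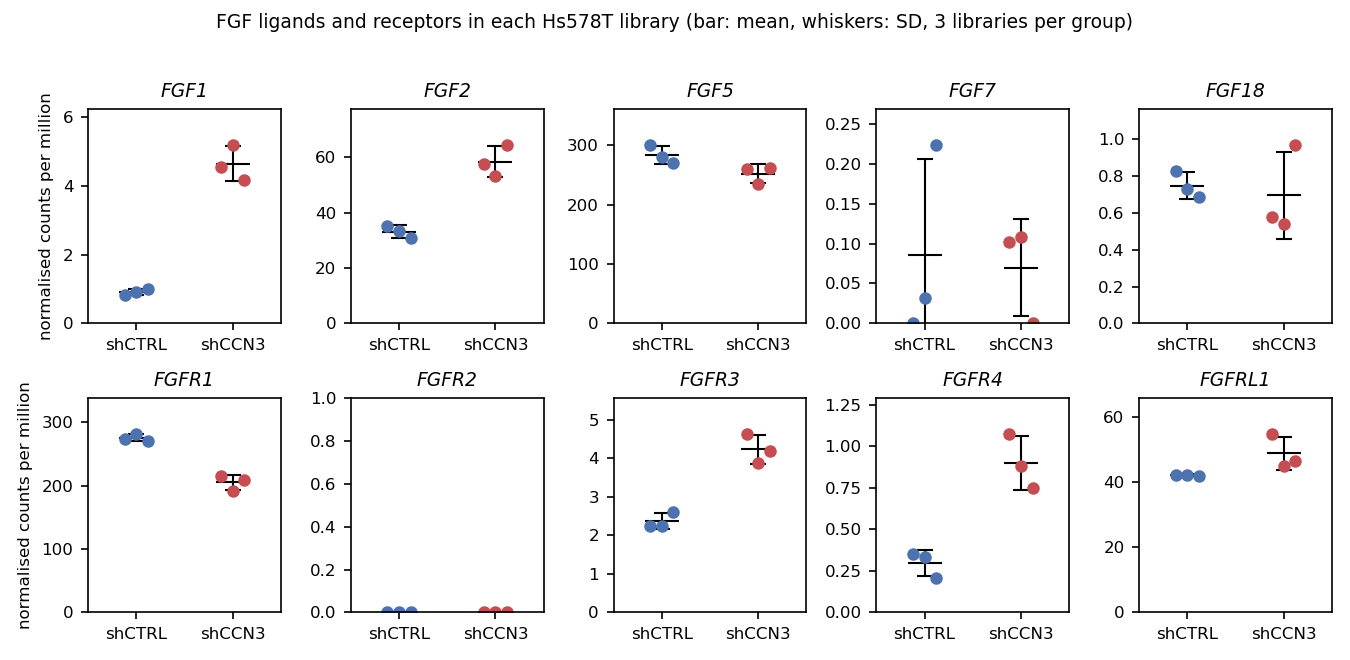
Normalised CPM (vertical axes, each from 0) of the 10 FGF genes in the 3 shCTRL (blue) and 3 shCCN3 (red) libraries, with the group mean and SD in black. The shCCN3 points of FGF1, FGF2, FGFR3 and FGFR4 lie above all shCTRL points, those of FGFR1 lie below them, FGF7 and FGF18 overlap, and FGFR2 is at 0 in every library.

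Shown, as a description, are the bases before the transcription starts of the 4 genes picked for being called higher. They are taken from RefSeq (GRCh38.p14), written 5′ to 3′ on the strand of the gene, and stop before the first base of any annotated exon of the gene. The window of FGF1 start 2 has too few bases, if any, before an annotated exon and is not printed. Capitals mark the letters GGGCGG, the GC box bound by SP factors, GGAATG, the core of TEAD sites, or CACGTG, the E box, on either strand (CCGCCC and CATTCC on the other strand for the first pair).
FGF1, start 1 (chr5:142698071-142698320, minus strand): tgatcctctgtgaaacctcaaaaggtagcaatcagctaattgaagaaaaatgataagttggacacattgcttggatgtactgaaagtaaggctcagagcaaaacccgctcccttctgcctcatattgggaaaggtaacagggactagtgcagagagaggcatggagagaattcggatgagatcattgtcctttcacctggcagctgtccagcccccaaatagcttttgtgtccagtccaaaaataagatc
FGF1, start 3 (chr5:142644302-142644489, minus strand): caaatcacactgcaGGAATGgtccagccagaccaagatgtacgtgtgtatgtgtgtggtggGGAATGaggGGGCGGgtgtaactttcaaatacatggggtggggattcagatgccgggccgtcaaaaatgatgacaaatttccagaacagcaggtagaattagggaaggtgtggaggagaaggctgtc
FGF2 (chr4:122826581-122826681, plus strand): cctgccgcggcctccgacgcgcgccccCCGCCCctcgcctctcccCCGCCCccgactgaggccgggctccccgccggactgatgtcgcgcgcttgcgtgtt
FGFR3 (chr4:1793043-1793292, plus strand): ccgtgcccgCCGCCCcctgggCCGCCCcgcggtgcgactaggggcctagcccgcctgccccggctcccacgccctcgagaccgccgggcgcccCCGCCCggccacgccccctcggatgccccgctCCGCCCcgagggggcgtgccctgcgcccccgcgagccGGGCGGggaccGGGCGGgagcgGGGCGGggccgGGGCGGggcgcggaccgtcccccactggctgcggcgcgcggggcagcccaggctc
FGFR4, start 1 (chr5:177086665-177086885, plus strand): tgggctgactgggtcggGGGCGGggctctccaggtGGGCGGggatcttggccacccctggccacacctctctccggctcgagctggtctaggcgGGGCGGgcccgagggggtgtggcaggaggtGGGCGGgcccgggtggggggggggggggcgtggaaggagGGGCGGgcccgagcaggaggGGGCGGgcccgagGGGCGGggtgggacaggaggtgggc
FGFR4, start 2 (chr5:177089300-177089549, plus strand): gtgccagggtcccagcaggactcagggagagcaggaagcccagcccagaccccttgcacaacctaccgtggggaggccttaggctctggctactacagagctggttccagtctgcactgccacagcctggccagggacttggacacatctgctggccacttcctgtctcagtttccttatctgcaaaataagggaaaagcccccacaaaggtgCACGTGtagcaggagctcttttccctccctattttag

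The windows differed widely in base composition. The 250 bases before the FGFR3 start were 86.8% G and C, higher than in 99.8% of the 35116 promoters of the table, and held 8 GC boxes. The 250 bases before FGFR4 start 1 were 79.6% G and C with 7 GC boxes, and those at the FGF2 start were 75.2% G and C with 3, of which 2 lie in the stretch printed. The window of FGF1 start 1 was 44.8% G and C, higher than 21.6% of promoters, and held none of the 5 motifs searched. The window of FGFR4 start 2 was 57.2% G and C and held no GC box and 1 E box. The window of FGF1 start 2 was 60.8% G and C with 1 GC box. The window of FGF1 start 3 was 47.2% G and C and held 1 GC box, 2 GGAATG and, within its exon, 1 AP-1 site (TGANTCA). Of all promoters of this length, 42.6% held a GC box, 11.9% GGAATG, 6.57% the AP-1 letters, 10.7% the TATA box letters TATAAA and 6.34% the E box CACGTG. Matches of different motifs did not overlap in the stretches printed. A match is a description of the letters and not of a bound site. RefSeq windows were matched for 9 of the 10 genes, all but FGFR1, which was called lower. Genes not called higher also had windows rich in G and C. These were FGF18 (78.8%, 3 GC boxes), FGFR2 start 1 (78.4%, 3), FGF5 start 1 (68.8%, 1) and FGFRL1 (67.6%, 4). FGF7 (38.4%), FGF5 start 2 (47.2%) and FGFR2 starts 2 to 5 (42.8% to 50%) were lower.

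Among the ligands, FGF1 rose most, from few counts in shCTRL cells, and FGF2 rose from a higher level. FGF5, the ligand gene with the highest level per length, was not called. FGF18 and FGF7 also had few counts, and neither was called.

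FGF1 (NCBI Gene 2246, chr5:142592178-142698070, minus strand of GRCh38) encodes acidic FGF, a ligand without a classical signal peptide that binds every kinase receptor. It had 57, 57 and 68 counts in the shCTRL libraries and 314, 288 and 267 counts in the shCCN3 libraries. These are 0.830, 0.907 and 1.01 CPM against 4.56, 5.18 and 4.18 CPM. Every shCCN3 library was far above every shCTRL library. The mean went from 0.917 ± 0.0922 to 4.64 ± 0.509 CPM (SD, n = 3 each), 5.05-fold higher. The log2FC was 2.34 (SE 0.156, adjusted p = 6.67e-06 from the edgeR test) and only 1.40% of the genes tested had a higher one. It stayed between 2.25 and 2.42 with each library left out.

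FGF2 (NCBI Gene 2247, chr4:122826708-122898236, plus strand) encodes basic FGF, which is also exported without a signal peptide and is held by heparan sulfate. Its levels were 35.3, 33.4 and 30.7 CPM in shCTRL and 57.4, 53.3 and 64.3 CPM in shCCN3 cells. The lowest shCCN3 library was well above the highest shCTRL library. The mean rose 1.76-fold, from 33.1 ± 2.29 to 58.3 ± 5.58 CPM (SD, n = 3 each), with a log2FC of 0.82 (SE 0.086, adjusted p = 0.000104 from the edgeR test). Leaving out single libraries gave 0.74 to 0.88. The gene NUDT6 lies on the opposite strand and overlaps FGF2. Whether counting used the strand is not given in the sources used here, so reads of the pair could be mixed. NUDT6 itself went from 4.61 ± 0.387 to 3.91 ± 1.19 CPM (SD, n = 3 each), a log2FC of -0.24 with an adjusted p of 0.407 from the edgeR test. Without shCCN3 replicate 2 the NUDT6 value was -0.48 with an adjusted p of 0.0367, and that of FGF2 was 0.88 with an adjusted p of 9.42e-06. NUDT6 was at most 5.15 CPM in any library, while the lowest library of FGF2 was at 30.7 CPM.

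FGF5 (NCBI Gene 2250, chr4:80266599-80336680, plus strand) encodes a secreted ligand known as a regulator of the hair growth cycle. Its levels were 301, 280 and 270 CPM in shCTRL and 261, 234 and 263 CPM in shCCN3 cells. The shCCN3 libraries lay below the shCTRL libraries with a narrow gap. The group means were 284 ± 15.5 and 253 ± 15.7 CPM (SD, n = 3 each), and the log2FC of -0.17 (SE 0.068) had an adjusted p of 0.0904 from the edgeR test. FGF5 was therefore not called.

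FGF18 (NCBI Gene 8817, chr5:171419656-171457623, plus strand) encodes a ligand of FGFR3 and other receptors with roles in cartilage and bone. It had 57, 46 and 46 counts in shCTRL and 40, 30 and 62 counts in shCCN3 libraries, or 0.749 ± 0.0735 and 0.697 ± 0.237 CPM (SD, n = 3 each). The groups overlapped, since shCCN3 replicate 3 was the highest library and the other shCCN3 libraries were the lowest. The log2FC was -0.10 (SE 0.279, adjusted p = 0.817 from the edgeR test), and its sign turned to positive without shCCN3 replicate 1 (0.02) or replicate 2 (0.05). A change of FGF18 was not detectable given the spread between the shCCN3 libraries.

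FGF7 (NCBI Gene 2252, chr15:49423096-49488775, plus strand) encodes keratinocyte growth factor, which stromal cells make and which acts on FGFR2 of epithelial cells. It had 0, 2 and 15 counts in shCTRL and 7, 6 and 0 counts in shCCN3 libraries. Each group held a library with 0 counts, and no direction could be read. With no filter on low counts its log2FC was -0.28 with an adjusted p of 0.923 from the edgeR test. The genome holds many copies of part of FGF7, and reads may be split among them. Of the pseudogenes FGF7P1 to FGF7P8, 5 were tested and none was called, with FGF7P6 highest at 0.909 ± 0.0876 and 0.725 ± 0.192 CPM (SD, n = 3 each). The FGF7 counts are therefore uncertain.

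Among the receptors, FGFR1 fell modestly from a high level, the low-level receptors FGFR3 and FGFR4 rose, FGFR2 was not detected, and FGFRL1 was near the threshold.

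FGFR1 (NCBI Gene 2260, chr8:38400215-38468834, minus strand) encodes the receptor kinase typical of mesenchymal cells. It was at 274, 281 and 271 CPM in shCTRL and 215, 191 and 209 CPM in shCCN3 cells. All shCCN3 libraries were below all shCTRL libraries. The mean was 275 ± 5.21 against 205 ± 12.4 CPM (SD, n = 3 each), 1.34-fold lower in shCCN3 cells. The log2FC was -0.43 (SE 0.062, adjusted p = 0.000694 from the edgeR test), -0.46 to -0.37 with each library left out, and -0.37 (adjusted p = 0.000223 from the edgeR test) without shCCN3 replicate 2. Of the genes tested, 15.8% had a lower value.

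FGFR3 (NCBI Gene 2261, chr4:1793293-1808872, plus strand) encodes a receptor kinase known for its part in bone growth and bladder cancer. It was at 2.24, 2.24 and 2.61 CPM in shCTRL and 4.63, 3.87 and 4.19 CPM in shCCN3 cells. The groups were clearly apart. The mean rose 1.79-fold, from 2.36 ± 0.211 to 4.23 ± 0.381 CPM (SD, n = 3 each). The log2FC was 0.84 (SE 0.134, adjusted p = 0.00124 from the edgeR test), with a leave-one-out range of 0.77 to 0.92.

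FGFR4 (NCBI Gene 2264, chr5:177086886-177098144, plus strand) encodes the receptor kinase that serves FGF19 in the liver. It was the receptor with the fewest counts that could be tested, with 24, 21 and 14 counts in shCTRL and 74, 49 and 48 counts in shCCN3 libraries. In CPM these were 0.349, 0.334 and 0.209 against 1.07, 0.882 and 0.751. All shCCN3 libraries were above all shCTRL libraries. The mean was 0.297 ± 0.0773 against 0.902 ± 0.163 CPM (SD, n = 3 each), 3.03-fold higher. The log2FC of 1.60 had the largest error of the called FGF genes (SE 0.294, adjusted p = 0.00273 from the edgeR test) and ranged from 1.40 to 1.73 with each library left out. Of the genes tested, 2.69% had a higher value.

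FGFR2 (NCBI Gene 2263, chr10:121478334-121598458, minus strand) encodes the kinase receptor of epithelial cells and of FGF7. It had 0 counts in all 6 libraries, which allows up to 0.0439 to 0.0534 CPM in a library. The epithelial markers CDH1 and EPCAM were likewise at or near 0.

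FGFRL1 (NCBI Gene 53834, chr4:1009936-1026897, plus strand) was at 42.3, 42.2 and 41.8 CPM in shCTRL and 54.8, 45.1 and 46.6 CPM in shCCN3 cells. The shCCN3 libraries were all higher, with replicate 1 well above the others. The mean was 42.1 ± 0.306 against 48.8 ± 5.20 CPM (SD, n = 3 each). The log2FC was 0.21 (SE 0.081, adjusted p = 0.0697 from the edgeR test), so it was not called. DESeq2 gave an adjusted p of 0.0494, and without shCCN3 replicate 2 the edgeR value was 0.27 with an adjusted p of 0.0137.

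For each single gene, an exact permutation test of the 6 CPM values (two-sided) gave p = 0.1 for the 7 genes without overlap, the smallest p that 3 libraries against 3 allow. For FGF18 this exact test gave p = 0.7 and for FGF7 p = 0.9.

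**Figure D2:**
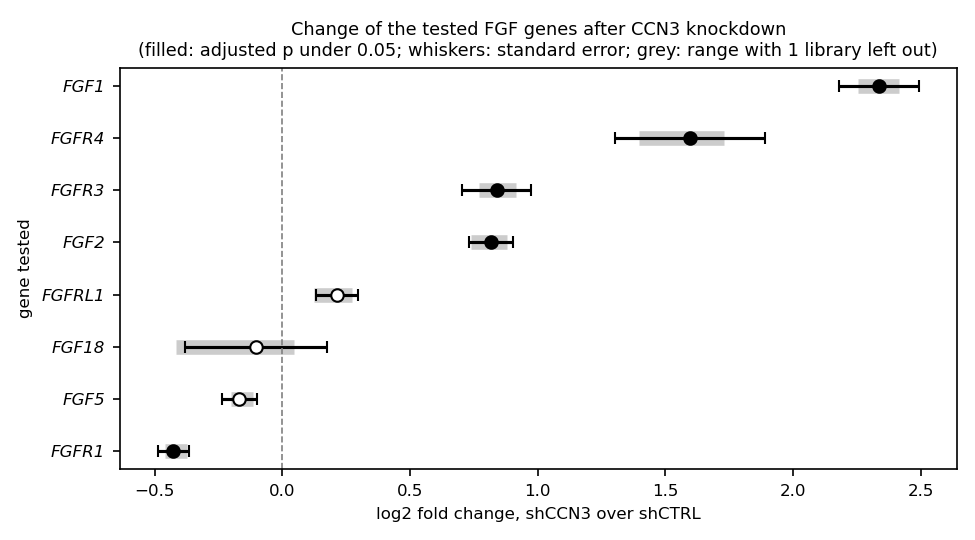
Log2 fold change of shCCN3 over shCTRL (horizontal axis) for the 8 FGF genes tested, with the standard error as whiskers and the range over 6 fits that each leave out 1 library in grey. Filled points were called. FGF1 and FGFR4 lie furthest to the right (2.34 and 1.60), FGFR1 furthest to the left (-0.43), and the grey bar of FGF18 crosses 0.

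Levels of different genes were compared per length, as CPM per kilobase of merged GENCODE exons (RPKM). In shCTRL cells the order was FGF5 at 47.3 ± 2.59 RPKM, FGFR1 at 19.9 ± 0.376, FGFRL1 at 10.2 ± 0.0737, FGF2 at 4.89 ± 0.338, FGFR3 at 0.488 ± 0.0434, FGF18 at 0.377 ± 0.0370, FGF1 at 0.174 ± 0.0175, FGFR4 at 0.0616 ± 0.0160 and FGF7 at 0.0128 ± 0.0182 (SD, n = 3 each), with FGFR2 at 0. Neighbours in this order did not overlap between libraries, apart from FGF7 and FGFR2. In shCCN3 cells FGF1 moved up past FGF18 to 0.879 ± 0.0965 RPKM, level with FGFR3 at 0.872 ± 0.0786, and these neighbours did not differ beyond their spread. The other genes kept their places, with FGF5 at 42.1 ± 2.62, FGFR1 at 14.8 ± 0.893, FGFRL1 at 11.8 ± 1.25, FGF2 at 8.61 ± 0.824, FGF18 at 0.351 ± 0.119 and FGFR4 at 0.187 ± 0.0337 RPKM (SD, n = 3 each). Using the longest transcript as the length left the order of the group means as it was.

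**Figure D3:**
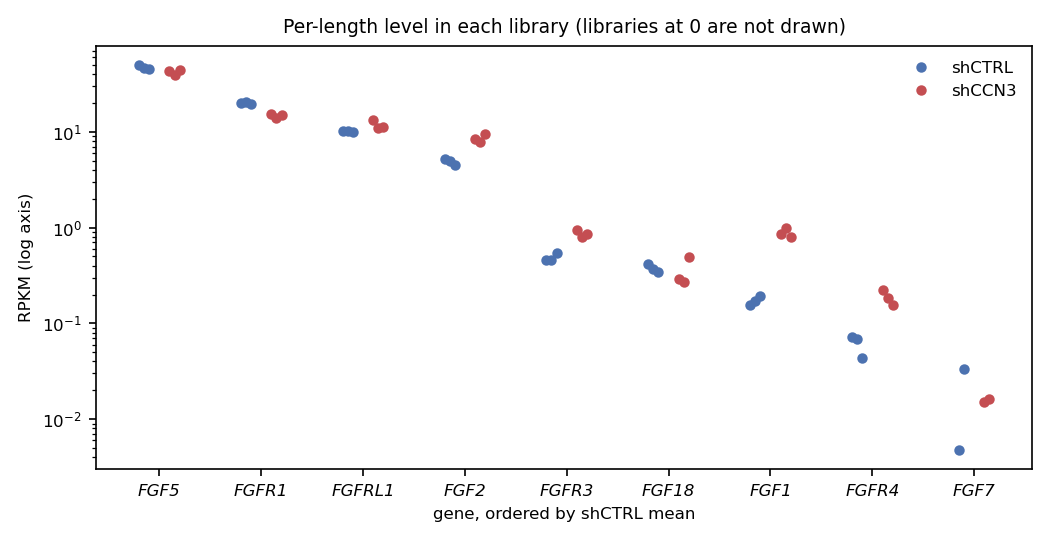
Level per length (RPKM, log axis) of the 9 FGF genes with any count, in each shCTRL (blue) and shCCN3 (red) library, ordered by the shCTRL mean. FGF5, FGFR1, FGFRL1 and FGF2 lie above the other genes in both groups, and FGF1 reaches the level of FGFR3 in shCCN3 cells.

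Summed over FGFR1 to FGFR4, the level per length went from 20.4 ± 0.356 to 15.9 ± 0.979 RPKM (SD, n = 3 each). FGFR1 made up 97.3 ± 0.173% of this sum in shCTRL and 93.3 ± 0.361% in shCCN3 cells, FGFR3 2.39 ± 0.245% and 5.50 ± 0.195%, and FGFR4 0.301 ± 0.0758% and 1.18 ± 0.190% (SD, n = 3 each). FGFR1 thus remained by far the main receptor kinase transcript. With the longest transcript as length its share was 98.6% and 96.4%. Over the 5 ligands the sum was 52.8 ± 2.92 and 52.0 ± 3.32 RPKM, which differed by less than the SD. Within it FGF5 went from 89.7 ± 0.155% to 81.1 ± 0.796%, FGF2 from 9.26 ± 0.206% to 16.6 ± 0.756% and FGF1 from 0.331 ± 0.0509% to 1.71 ± 0.301% (SD, n = 3 each). These shares are descriptions and were not tested.

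The change of each gene was set beside that of the 24 tested genes nearest to it. FGF1 lay among neighbours with a median log2FC of -0.09 (9 of 24 higher), FGFR3 among neighbours with a median of 0.00, and FGFR4 among neighbours with a median of 0.03. The log2FC of each of these genes lay above the median of its neighbours. The part of the neighbours in these changes was not tested. The neighbours of FGF2 had a median of 0.16, with 17 of 24 higher. The neighbours of FGFR1, within 3.07 Mb, had a median of -0.23 with 4 of 24 higher, while chromosome 8 as a whole had a median of 0.11 over 527 genes. FGFR1 thus fell in a stretch whose genes were mostly lower too, and the part of this stretch in its change was not tested. Away from the FGF genes, and picked after their values were seen, chromosome 7 had a median of -0.44 over 702 genes. Chromosome 6 had a median of 0.35 over 778 genes. The cause of these chromosome-wide differences between the lines was not tested.

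**Figure D4:**
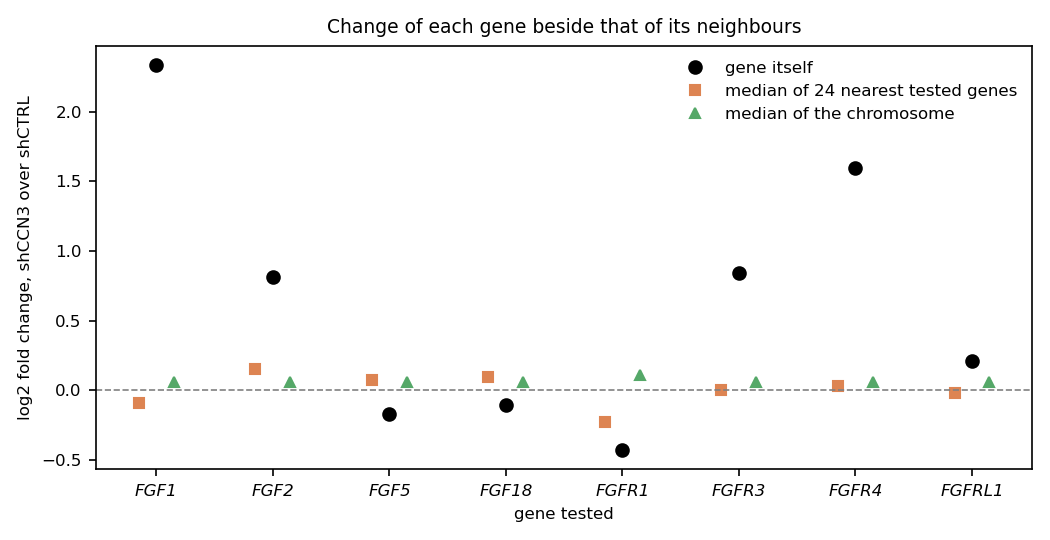
Log2 fold change of each tested FGF gene (black), of its 24 nearest tested genes as a median (orange) and of its chromosome as a median (green). FGF1, FGFR4, FGF2 and FGFR3 stand above both medians, whereas the FGFR1 neighbours lie below 0 at -0.23, on the same side as FGFR1.

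The remaining genes of the pathway were taken from lists written out by role. Of the 13 other secreted ligands, 8 had 0 counts in every library and 2 could be tested. FGF21, a metabolic hormone that acts through KLB, had 0, 0 and 2 counts in shCTRL and 23, 15 and 18 counts in shCCN3 libraries. The ratio of the summed counts was 29.5, with a 95% counting interval of 7.8 to 250, and the gene was called higher (adjusted p = 0.00144 from the edgeR test). It passed the filter only through the shCCN3 libraries. FGF22 was not called (log2FC -0.85, adjusted p = 0.103 from the edgeR test), but without shCCN3 replicate 2 it was called lower.

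The FGF homologous factors are not secreted and are known for binding sodium channels inside the cell. All 4 were tested, and 1 was called lower (25%, beside 17.3% of all genes tested). FGF13 was at 19.3, 18.2 and 17.7 CPM in shCTRL and 7.88, 7.86 and 8.87 CPM in shCCN3 cells. Its log2FC was -1.17 (SE 0.085, adjusted p = 1.13e-05 from the edgeR test). The genes around FGF13 had a median of 0.29.

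Among 8 co-receptors and carriers, 5 were tested and 1 was called higher (20%, beside 16.2% of all genes tested). The Klotho genes KL and KLB, obligate co-receptors of the hormone-like FGFs, and FGFBP2 were at 0 in every library. FLRT1, a membrane protein that binds FGF receptors, went from 0.547 ± 0.176 to 1.37 ± 0.412 CPM (SD, n = 3 each), with a log2FC of 1.33 (SE 0.320, adjusted p = 0.0111 from the edgeR test). Without shCCN3 replicate 2, 2 genes of this list were called higher, beside 3571 of all 17837 genes tested in that fit.

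Heparan sulfate synthesis and editing genes shape the chains on which FGF and receptor assemble. Of 20 genes 17 were tested, with 4 called higher (23.5%), 4 lower (23.5%) and 9 not called, and a median log2FC of 0.04. Of all genes tested, 16.2% were called higher and 17.3% lower. The largest fall was that of NDST4, an N-deacetylase and N-sulfotransferase, from 21.3 ± 1.27 to 2.55 ± 0.0583 CPM (SD, n = 3 each), a log2FC of -3.06 (adjusted p = 6.97e-08 from the edgeR test). HS3ST1, a 3-O-sulfotransferase, fell from 13.4 ± 0.452 to 5.48 ± 0.788 CPM (SD, n = 3 each), a log2FC of -1.29. EXTL2, which limits chain formation, had a log2FC of -0.44. SULF1, an extracellular 6-O-endosulfatase that removes sulfates needed for FGF2 signalling, had 21, 16 and 0 counts in shCTRL and 423, 326 and 469 counts in shCCN3 libraries. Its log2FC was 5.10 (SE 0.502, adjusted p = 6.7e-05 from the edgeR test), and its 24 neighbours had a median of 0.41 with 22 higher. It passed the filter through the shCCN3 libraries, since only 2 shCTRL libraries reached the minimum. The size of its change depended on the low shCTRL counts: the log2FC was 5.68 without shCTRL replicate 1, 4.51 without shCTRL replicate 3 and 6.26 with limma-voom. EXT1, a chain polymerase subunit, rose from 245 ± 3.53 to 408 ± 4.10 CPM (SD, n = 3 each), a log2FC of 0.74. HS6ST1, a 6-O-sulfotransferase, rose by a log2FC of 0.46. The 24 neighbours of EXTL2 had a median of -0.19 with 4 higher, and those of EXT1 a median of 0.18 with 17 higher. Those of NDST4, HS3ST1 and HS6ST1 had medians of -0.03, 0.00 and 0.01. The part of the neighbours in these changes was not tested. The other called genes, HS3ST3B1 (0.24) and HS2ST1 (-0.28), fell outside the rule for named genes and were picked after their values were seen. Their adjusted p reached 0.164 and 0.121 with single libraries left out (edgeR). Without shCCN3 replicate 2, 7 genes of this list were called higher instead of 4, beside 3571 of all 17837 genes tested in that fit.

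All 22 adaptors and kinases were tested. Of these 3 were called higher (13.6%, near the 16.2% of all genes tested), none was called lower by edgeR, and the median log2FC was 0.07. Of the 22, 0 were called lower by limma-voom and 1 by DESeq2, and 2 had an unadjusted p under 0.05 with a lower value. The adaptor GAB1 rose from 4.69 ± 0.623 to 7.77 ± 0.761 CPM (SD, n = 3 each), with a log2FC of 0.73 (SE 0.130, adjusted p = 0.00223 from the edgeR test). FRS2, the docking protein of the receptors, had a log2FC of 0.43 (adjusted p = 0.0223 from the edgeR test). The call of FRS2 was lost when shCCN3 replicate 1 or 3 or shCTRL replicate 2 or 3 was left out, with adjusted p values of up to 0.0897 (edgeR). Without shCCN3 replicate 2, 9 genes of this list were called higher, and 1 without shCCN3 replicate 1 or 3 or shCTRL replicate 2 or 3. Over all genes tested the calls moved the same way. Without shCCN3 replicate 2, 3571 of 17837 were called higher, and 2044 to 2280 in the other fits named.

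Feedback inhibitors and ETS factor genes, which the pathway commonly induces, were lower wherever they were called. The part of FGF signalling or of other receptors in these levels was not tested. Of 15 genes tested, 8 were called lower (53.3% against 17.3% of all genes tested), none was called higher, also at an unadjusted p under 0.05 (0 of 15) and by DESeq2 and limma-voom, and the median log2FC was -0.38. Without shCCN3 replicate 2, 1 gene was called higher and 8 lower. Of all 17837 genes tested in that fit, 3571 were called higher and 3658 lower. DUSP6, a phosphatase specific for ERK, was at 28.8, 28.0 and 26.9 CPM in shCTRL and 10.9, 9.77 and 10.4 CPM in shCCN3 cells. It fell 2.69-fold, with a log2FC of -1.43 (SE 0.076, adjusted p = 1.85e-06 from the edgeR test). ETV1, an ETS transcription factor, fell from 75.9 ± 5.06 to 30.7 ± 3.83 CPM (SD, n = 3 each), a log2FC of -1.30 (adjusted p = 1.24e-05 from the edgeR test). ETV1 lies on chromosome 7, whose 702 other tested genes had a median of -0.44. DUSP4, a nuclear MAP kinase phosphatase, fell from 86.4 ± 3.595 to 39.5 ± 1.45 CPM (SD, n = 3 each), a log2FC of -1.13 (adjusted p = 2.19e-06 from the edgeR test). DUSP4 lies on chromosome 8 among 24 neighbours with a median of -0.34, none of which was higher. The other called genes, picked after their values were seen, were SPRY2 (-1.12), SPRED3 (-1.02), DUSP5 (-0.65), SPRY4 (-0.65) and SPRED2 (-0.38). The adjusted p of SPRED2 reached 0.0676 with single libraries left out (edgeR). The ETS factor genes ETV4 (-0.08, adjusted p = 0.497) and ETV5 (0.02, adjusted p = 0.853 from the edgeR test), also picked after their values were seen, were not called.

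**Figure D5:**
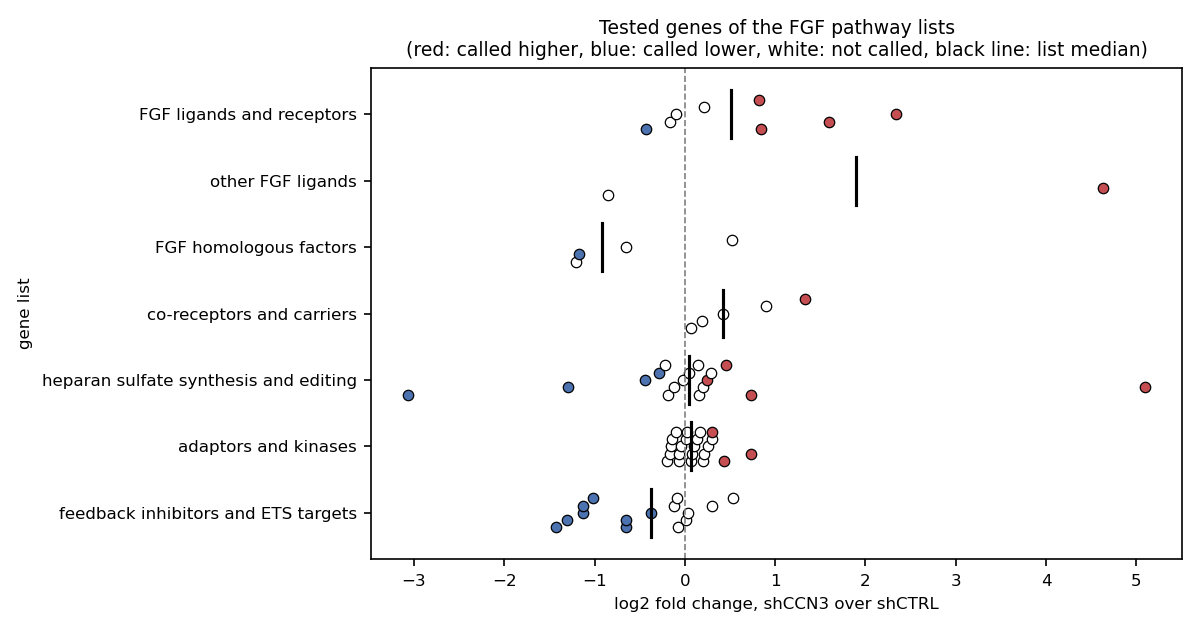
Log2 fold change of shCCN3 over shCTRL (horizontal axis) for every tested gene of the FGF genes and of the 6 pathway lists, with each list's median as a black line. Red points were called higher, blue points lower and white points not called. The blue points gather among the feedback inhibitors and ETS targets (8 of 15), and 19 of the 22 adaptors and kinases are white.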

How the data were processed

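Poly(A) RNA of 6 Hs578T samples was sequenced with a stranded kit. The authors deposited raw counts, not normalized, of 46427 genes named by NCBI Gene ID and symbol. The submitters' processing notes name bcl2fastq 2.20.0, Trimmomatic, HISAT2 2.1.0, StringTie 2.1.3d, DESeq2 and the build GRCh38, with no roles. The annotation and strand setting are not given in the sources used here. The total count per library was 56159110 to 68393177.

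The counts were analysed with edgeR 4.0.16 in R 4.3.3, with TMM factors, filterByExpr by group (at least 10 counts in a library of median size in 3 libraries), glmQLFTest and Benjamini-Hochberg adjustment over 17419 genes. Alternatives were DESeq2 size factors, upper-quartile factors, no filter, at least 10 counts everywhere, the DESeq2 1.42.0 test, limma-voom (limma 3.58.1), a replicate block and each library left out. Lengths and positions came from GENCODE release 29 and promoters from RefSeq. The scripts were tested on simulated data.

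The FGF genes and pathway lists were chosen with earlier results of these data known. Named were all 10 FGF genes, from each list up to 3 called genes in each direction by size of change, CCN3, NUDT6 and the FGF7 pseudogenes. The values of 1 called gene of the lists are not reported here. Longest transcripts as lengths were added after seeing the data.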

Additional observations from a re-analysis of the deposited data

How the results depend on the processing

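All 5 calls among the FGF genes kept their direction and stayed under the threshold in every alternative run, and 4 genes were called higher except with DESeq2 or without shCCN3 replicate 2, where FGFRL1 made it 5. The count of other FGF ligands called higher was 0 when at least 10 counts were required in every library, since FGF21 could then not be tested, heparan sulfate genes called higher were then 3 of 16 tested, since SULF1 was left out too, and 1 adaptor or kinase was called lower with DESeq2. When single libraries were left out, the FGF18 log2 fold change ranged from -0.42 to 0.047, turning positive without shCCN3 replicate 1 (0.018) and replicate 2 (0.047). Over the same 6 fits, other FGF ligands called lower ranged from 0 to 1, co-receptors called higher from 1 to 2, heparan sulfate genes called higher from 3 to 7, adaptors and kinases called higher from 1 to 9, and feedback genes called higher from 0 to 1, in each case with the highest count without shCCN3 replicate 2. The cause was not tested. Over all genes tested, 2044 to 3571 were called higher and 2137 to 3658 lower in these fits, again with the highest counts without shCCN3 replicate 2. Same-numbered samples correlated in their deviations at 0.0891, -0.0256 and -0.0657, which does not pair them. With the replicate block, 4 FGF genes were higher and 1 lower, and 2331 of all genes were higher and 2556 lower. The block took the heparan sulfate genes called higher from 4 to 3 and the adaptors and kinases called higher from 3 to 2. It changed no call of an FGF gene. With the longest transcript as length, the share of FGF5 in the ligands was 90.8% in shCTRL and 82.7% in shCCN3 cells.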
